A study of Mus musculus with 16 samples.

Results

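The NF-κB family of transcription factors and the IκB proteins that bind them are described here at the level of their transcripts in murine gingival fibroblasts (mGF). The 10 genes were chosen by name. They are the 5 subunit genes Nfkb1, Nfkb2, Rel, Rela and Relb, and 5 genes of the IκB type, Nfkbia, Nfkbib, Nfkbie, Nfkbiz and Bcl3. They are 10 of the 56941 genes in the deposited count table, and all 10 were among the 16306 genes that passed the filter on low counts. The least counted of them, Bcl3, had 69 counts in its lowest library.

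The mGF were primary connective tissue cells that grew out of gum explants taken around the second upper molar of wild-type C57Bl6 mice aged 3 to 6 months. They were kept in medium with 20% serum, used between passages 2 and 8, and treated for 24 h. The BSA (control) group received the albumin carrier alone. The palmitate group received 200 µM palmitate, a saturated fatty acid, on the same carrier. The IL-1β group received 1 ng/mL of recombinant mouse IL-1β, a cytokine that acts through its own receptor, and the palmitate + IL-1β group received both at these doses. The labels of the IL-1β libraries name IL-1β only. In legends of its other assays, the paper pairs IL-1β with the BSA vehicle. For the sequenced IL-1β cells, carrier is not stated outright. If they lacked it, every comparison with the IL-1β group, and the interaction described below, also includes the carrier, which cannot be told apart. Each group had 4 bulk RNA libraries, numbered 1 to 16 over the study. Neither the labels nor the methods say whether libraries of a group came from separate cultures or animals, so p-values measure only the spread between these libraries, which may be technical.

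NF-κB acts as dimers of its subunits, and classical IκB proteins hold these dimers in the cytoplasm. In the canonical arm, stimuli such as IL-1β activate the IκB kinase, the IκB proteins are degraded, and dimers that contain p65 (from Rela), p50 (from Nfkb1) or c-Rel (from Rel) enter the nucleus. In the non-canonical arm, the p100 precursor from Nfkb2 is processed to p52, which pairs with RelB. The genes for IκBα, IκBε, p100, RelB and c-Rel are themselves well-known NF-κB targets, so the family feeds back on itself. The libraries measure transcripts only. They do not report protein, IκB degradation or nuclear entry.

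The upstream DNA of the family members is shown first, because several of them are textbook targets of the factor they encode or bind. RefSeq promoter windows (RefSeq table of GRCm38.p6, here placed by exact match in GRCm39) were given for 7 of the 10 members, in 9 windows. None was given for Nfkb1, Relb or Nfkbiz. The 250 bases before each start were searched on both strands for the κB consensus, the 10-base site bound by NF-κB dimers. Its letters are G G G R N N Y Y C C, where R is A or G, Y is C or T and N is any base. A match was found for 4 of the 7 members, Nfkbia, Nfkbie, Rel and Nfkb2. In the same table, 9.03% of 20133 genes held one in any window. In the lines that follow, capitals mark the matched bases, each run is written 5′ to 3′ on the gene's strand, and coordinates are those of the capitals.
Nfkbia, 29 to 20 bases before the start, chr12:55539452-55539461 (minus strand): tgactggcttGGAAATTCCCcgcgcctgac
Nfkbie, 106 to 97 bases before the start, chr17:45866520-45866529 (plus strand): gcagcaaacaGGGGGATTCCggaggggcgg
Rel, 92 to 82 bases before the start, chr11:23721051-23721061 (minus strand): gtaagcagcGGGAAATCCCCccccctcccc
Nfkb2, window 1, 39 to 29 bases before its start, chr19:46293137-46293147 (plus strand): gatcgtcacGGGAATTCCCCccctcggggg
Nfkb2, window 1, 11 to 2 bases before its start, chr19:46293165-46293174 (plus strand): ggggccgaaaGGGGCTTTCCc
Nfkb2, window 2, 236 to 227 bases before its start, chr19:46293898-46293907 (plus strand): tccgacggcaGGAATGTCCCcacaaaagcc
Nfkb2, window 3, 225 to 216 bases before its start, chr19:46294144-46294153 (plus strand): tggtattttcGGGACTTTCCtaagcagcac

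The runs of 11 capitals in Rel and in the first Nfkb2 window hold overlapping matches on both strands. The Nfkbia match and that in the second Nfkb2 window are on the strand opposite to the one printed. By GENCODE vM39, the Nfkbia and Nfkbie matches lay outside every annotated transcript of their gene. The Rel match lay in an exon of its single annotated transcript, and both matches of the first Nfkb2 window lay in an exon of 8 of its 16 transcripts, because these transcripts start further upstream than the RefSeq start. The match in the second Nfkb2 window lay in an intron of 10 transcripts, and that in the third in an intron of 10 and an exon of 2. The windows of Rela, Nfkbib and Bcl3 held no match to these letters. A match is a description of the sequence and not a measured site of binding.

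Depth and cell identity were checked before the comparisons. Between 21234789 and 92752515 counts fell in genes per library, and palmitate replicate 10 was the deepest. Levels are given as CPM, the counts of a gene relative to its library size, with library sizes scaled by the TMM method, which corrects for differences in RNA composition, with the SD over 4 libraries. All 10 fibroblast markers had counts, but their levels differed widely, with Col1a1 at 13208 to 15641 CPM and Lum at 0.700 to 2.26 CPM. The summed level of the 7 keratinocyte markers lay between 0.288 and 0.855 CPM over all libraries, with Krt4 at 0. The summed level of 9 leukocyte and macrophage markers was 4.26 to 6.19 CPM in BSA (control), 5.20 to 5.51 in IL-1β, 5.73 to 7.27 in palmitate and 5.89 to 7.91 in palmitate + IL-1β. Of this list, the pan-leukocyte gene Ptprc had at most 7 counts in a library, while Cd14 reached 384 counts (4.23 CPM). The summed level of 4 pericyte and smooth muscle markers was 159 to 174 CPM in BSA (control), 144 to 161 with IL-1β, 145 to 159 with palmitate and 126 to 147 with both agents, so that it was lower with both agents than in BSA (control) without overlap. The 4 endothelial markers summed to 1.75 to 2.25, 1.45 to 2.15, 1.42 to 1.95 and 1.45 to 1.69 CPM in the same order, and the 10 fibroblast markers to 46375 to 50788, 52321 to 57848, 46430 to 52440 and 47675 to 54828 CPM. These lists moved in part with the treatments, and their part in the results was not tested. In bulk RNA, a change in the share of responding cells and a change in RNA per cell cannot be told apart.

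Members of both classes were higher in the treated conditions than in BSA (control). IL-1β raised all 10 members, palmitate raised 9 (Rel did not pass the test), and palmitate + IL-1β raised all 10, while none fell against BSA (control). Counts were tested by edgeR's quasi-likelihood method, and a gene passed at a p under 0.05 after Benjamini-Hochberg adjustment over all 16306 genes. Over those genes, 10.1% were called higher and 4.97% lower with IL-1β, 19.8% higher and 17.5% lower with palmitate, and 24.8% higher and 22.5% lower with palmitate + IL-1β. The median log2 fold change of the members was 0.87 with IL-1β, 1.05 with palmitate and 1.23 with palmitate + IL-1β. Over all genes the medians lay within 0.01 of 0, where the TMM scaling itself tends to place them. The 5 genes of the IκB type, called inhibitor-type here, had larger medians (1.37, 2.16 and 2.14 in the same order) than the subunit genes (0.63, 0.79 and 1.10). This class includes Nfkbiz and Bcl3, whose products are nuclear and not classical IκB proteins. With palmitate, these 2 rose by 2.34 and 2.38 in log2, and the classical Nfkbia, Nfkbie and Nfkbib by 2.16, 1.46 and 0.65.

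Libraries of a treated condition and of BSA (control) did not overlap for 9 members with IL-1β (all but Rela), for 9 with palmitate (all but Rel) and for 10 with palmitate + IL-1β. Over all 6 pairs of conditions, 53 of 60 comparisons of a member were without overlap. Each of these had p = 0.0286 in an exact two-sided permutation test, the smallest value that 4 libraries against 4 can give, without adjustment. Overlap was examined for the members only, so no share over all genes stands beside these counts. With upper-quartile scaling in place of TMM, the share of higher calls among all called genes fell from 67.1% to 43.5% for IL-1β, from 53.1% to 37.1% for palmitate and from 52.4% to 38.7% for palmitate + IL-1β. The members' counts against BSA (control) stayed at 10, 9 and 10 under that scaling.

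**Figure D1:**
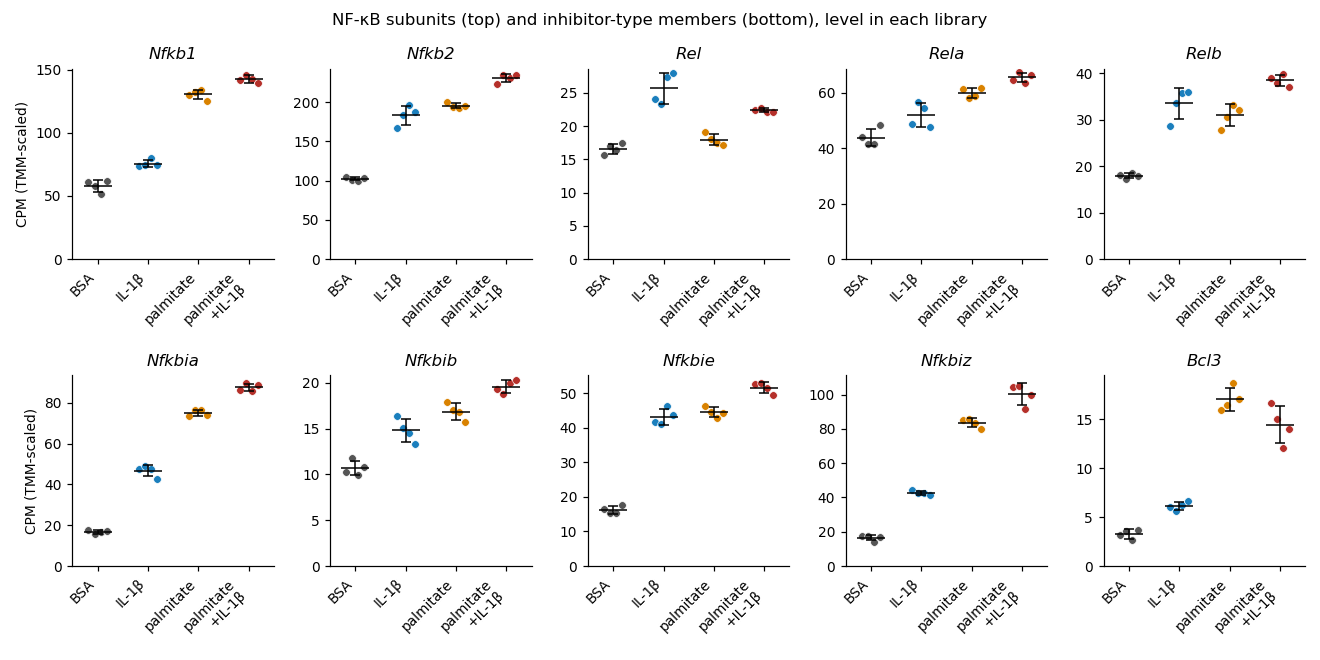
Level of each member in CPM (vertical axes, from 0) in the 4 libraries of each condition, subunits in the upper row and inhibitor-type genes in the lower row; bars are the mean and SD. Nfkb1, Nfkbia and Nfkbiz climb in 4 steps without overlap between conditions, while Rel is highest with IL-1β.

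The subunit genes differed in which agent moved them most. Nfkb1, which encodes p105 and its product p50, lay at 61.0, 57.8, 51.7 and 61.4 CPM in BSA (control), 74.1, 74.3, 79.9 and 74.1 with IL-1β, 130.0, 133, 134 and 125 with palmitate and 142, 146, 143 and 139 with both agents. The first 3 conditions were separate steps, and palmitate + IL-1β lay just above palmitate. The log2 change against BSA (control) was 0.38 ± 0.05 (SE) with IL-1β (adjusted p = 4.68e-07), 1.17 ± 0.05 with palmitate (adjusted p = 2.72e-19) and 1.30 ± 0.05 with palmitate + IL-1β (adjusted p = 1.31e-20). Palmitate and IL-1β differed by 0.79 ± 0.05 on the log2 scale (adjusted p = 1.00e-14), so the rise of Nfkb1 was the larger with palmitate. The difference between palmitate + IL-1β and palmitate, 0.13 ± 0.05, did not pass the test (adjusted p = 0.0762), although the libraries did not overlap.

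Nfkb2, the gene of the p100 precursor, lay at 105, 101, 100.1 and 104 CPM in BSA (control), 167, 184, 196 and 187 with IL-1β, 199.8, 194, 193 and 195 with palmitate and 223, 234, 231 and 234 with both agents. The libraries of the single agents overlapped, while the combination stood above both. The rise was 0.84 ± 0.04 in log2 with IL-1β (adjusted p = 9.12e-16) and 0.93 ± 0.04 with palmitate (adjusted p = 1.00e-17), and the agents differed by 0.09 with a 95% interval of 0.004 to 0.18 (adjusted p = 0.108). Relb, whose product pairs with p52, was likewise highest with both agents and had overlapping libraries for the single agents, with 17.3 to 18.5 CPM in BSA (control), 28.7 to 36.0 with IL-1β, 27.8 to 33.2 with palmitate and 37.1 to 39.9 with both agents. Its log2 change was 0.90 ± 0.06 with IL-1β (adjusted p = 2.77e-12), 0.79 ± 0.06 with palmitate (adjusted p = 9.74e-12) and 1.10 ± 0.06 with both (adjusted p = 1.63e-15). Palmitate and IL-1β differed for Relb by -0.11 (95% interval -0.24 to 0.01, adjusted p = 0.169).

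Rel, the gene of c-Rel, was the one member that did not pass the test with palmitate. It lay at 15.7, 17.0, 16.4 and 17.4 CPM in BSA (control), 24.1, 23.4, 27.4 and 28.0 with IL-1β, 19.2, 18.1, 17.5 and 17.2 with palmitate and 22.5, 22.8, 22.2 and 22.1 with both agents. Every IL-1β library was above every other library, and the palmitate libraries overlapped those of BSA (control). Rel rose by 0.63 ± 0.06 in log2 with IL-1β (adjusted p = 5.19e-09), and the palmitate difference was 0.11 with a 95% interval of -0.02 to 0.24 (adjusted p = 0.166). The level in palmitate + IL-1β was higher than in BSA (control) by 0.43 ± 0.06 (adjusted p = 8.89e-07) and higher than in palmitate by 0.32 ± 0.06 (adjusted p = 6.52e-04).

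Rela, the gene of p65, had the smallest rise of the 5 subunits with IL-1β, 0.25 ± 0.05 in log2 (adjusted p = 0.00153). Its libraries lay at 41.4 to 48.2 CPM in BSA (control), 47.7 to 56.5 with IL-1β, 58.1 to 61.7 with palmitate and 63.5 to 67.3 with both agents. The BSA (control) and IL-1β ranges overlapped, because BSA replicate 4 reached 48.2 CPM and IL-1β replicate 8 lay at 47.7, and the exact permutation test gave p = 0.0571 for this pair. The rises with palmitate, 0.45 ± 0.05 (adjusted p = 3.22e-08), and with both agents, 0.58 ± 0.05 (adjusted p = 1.11e-10), came from libraries that did not overlap with BSA (control).

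**Figure D2:**
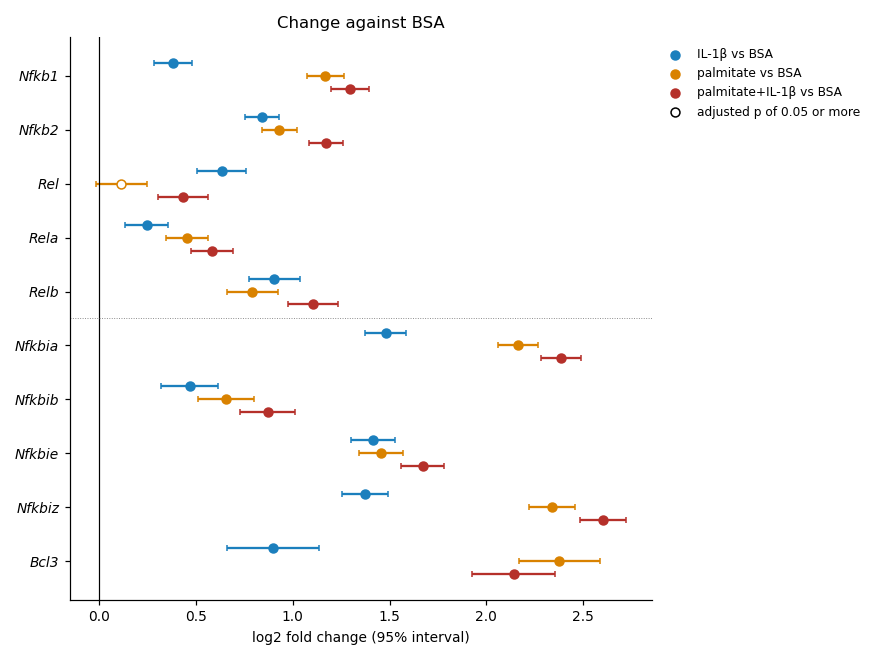
Log2 fold change of each member against BSA (control), with the 95% interval of edgeR's fit, for IL-1β, palmitate and palmitate + IL-1β; an open circle did not pass the test. The inhibitor-type genes below the dotted line reach 2.60 (Nfkbiz, both agents), the subunit genes above it 1.30 (Nfkb1, both agents), and the open circle is Rel with palmitate.

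Among the classical IκB genes, Nfkbia had the largest changes. Nfkbia encodes IκBα, the inhibitor that is degraded and resynthesized fastest after a stimulus. It lay at 17.7, 15.5, 16.5 and 17.4 CPM in BSA (control), 47.6, 49.1, 47.7 and 42.6 with IL-1β, 73.5, 76.7, 76.3 and 73.9 with palmitate and 86.5, 89.7, 85.9 and 88.7 with both agents. The 4 conditions formed 4 separate steps without overlap. IL-1β raised Nfkbia 2.79-fold, which is 1.48 ± 0.05 in log2 (adjusted p = 5.40e-20). Palmitate raised it 4.48-fold, or 2.16 ± 0.05 (adjusted p = 2.40e-25), and both agents 5.23-fold, or 2.39 ± 0.05 (adjusted p = 1.27e-26).

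Nfkbie, the gene of IκBε, rose to overlapping levels with the single agents. It lay at 16.5, 15.4, 15.3 and 17.8 CPM in BSA (control), 41.8, 41.0, 46.4 and 43.6 with IL-1β, 46.3, 44.6, 42.9 and 44.4 with palmitate and 52.7, 53.0, 51.5 and 49.5 with both agents. IL-1β and palmitate libraries overlapped, and the fitted difference between them was 0.04 in log2 with a 95% interval of -0.06 to 0.15 (adjusted p = 0.582). The rise was 1.41 ± 0.06 with IL-1β (adjusted p = 7.28e-19), 1.46 ± 0.06 with palmitate (adjusted p = 4.49e-20) and 1.67 ± 0.05 with both (adjusted p = 7.62e-22). Nfkbib, the gene of IκBβ, changed least of the classical IκB genes, from 9.92 to 11.8 CPM in BSA (control) to 13.3 to 16.4 with IL-1β, 15.7 to 17.9 with palmitate and 18.8 to 20.3 with both agents. Its log2 change was 0.47 ± 0.07 with IL-1β (adjusted p = 1.61e-05), 0.65 ± 0.07 with palmitate (adjusted p = 4.83e-09) and 0.87 ± 0.07 with both (adjusted p = 4.70e-12). Antisense genes cover 31.7% of the longest Nfkbib transcript examined and 40.3% of that of Nfkb2, and the counting was by strand.

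The nuclear IκB proteins do not hold dimers in the cytoplasm but act with them on DNA. Nfkbiz encodes IκBζ, which acts with p50 at a subset of inflammatory genes. It lay at 17.4, 17.4, 14.2 and 16.8 CPM in BSA (control), 44.4, 42.4, 42.5 and 41.7 with IL-1β, 85.0, 85.7, 83.6 and 79.9 with palmitate and 105, 105, 91.5 and 100.0 with both agents, again 4 steps without overlap. Nfkbiz rose 2.59-fold with IL-1β (1.37 ± 0.06 in log2, adjusted p = 6.22e-18), 5.06-fold with palmitate (2.34 ± 0.06, adjusted p = 5.40e-25) and 6.07-fold with both (2.60 ± 0.06, adjusted p = 2.35e-26).

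Bcl3, whose product binds p50 and p52 homodimers, had the largest difference between the agents. It lay at 3.17, 3.55, 2.63 and 3.71 CPM in BSA (control), 5.97, 5.66, 6.20 and 6.59 with IL-1β, 15.9, 16.5, 18.7 and 17.1 with palmitate and 16.6, 15.0, 12.1 and 14.0 with both agents. All palmitate libraries lay above all IL-1β libraries, and those of palmitate + IL-1β overlapped those of palmitate. The rise was 1.86-fold with IL-1β (0.90 ± 0.12 in log2, adjusted p = 8.01e-07) and 5.19-fold with palmitate (2.38 ± 0.10, adjusted p = 1.55e-18), a difference of 1.48 ± 0.10 between the agents (adjusted p = 7.58e-14). Bcl3 was also the one member with a lower mean under both agents (14.4 ± 1.90 CPM) than under palmitate alone (17.0 ± 1.18), but this difference of -0.24 in log2 (95% interval -0.41 to -0.06) did not pass the test (adjusted p = 0.0792).

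The treated conditions were then compared with each other, to see what palmitate did beyond IL-1β and what each agent added to the other. In comparisons with the IL-1β group, the albumin carrier may differ too. Between palmitate and IL-1β, 6 members were higher with palmitate and Rel was lower (-0.52 ± 0.06, adjusted p = 6.34e-08), where 16.5% of all genes were called higher and 15.2% lower. Nfkb2, Relb and Nfkbie did not pass the test, but Nfkb2 did without IL-1β replicate 7 (adjusted p = 0.0459) and Relb, lower with palmitate, without IL-1β replicate 5 (adjusted p = 0.0173); over their alternatives the adjusted p reached 0.423 and 0.438. The 6 were Bcl3, Nfkbiz (0.97 ± 0.05, adjusted p = 1.29e-15), Nfkb1, Nfkbia (0.68 ± 0.05, adjusted p = 3.74e-13), Rela (0.21 ± 0.05, adjusted p = 0.00337) and Nfkbib. The Nfkbib call, 0.19 ± 0.07 (adjusted p = 0.0378), was lost in 11 of 15 other settings (adjusted p from 0.0131 to 0.150 over all 15), among them the fits without replicate 6, 7, 8, 9, 10 or 11.

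Adding palmitate to IL-1β raised 9 members and lowered Rel, where 18.9% of all genes were called higher and 16.1% lower. The rises ran from 0.20 ± 0.06 in log2 for Relb (adjusted p = 0.0109) to 1.24 ± 0.10 for Bcl3 (adjusted p = 4.86e-12) and 1.23 ± 0.05 for Nfkbiz (adjusted p = 2.67e-18). Rel fell by 0.20 ± 0.06 (adjusted p = 0.0107). The Rel call was lost without IL-1β replicate 8, with an adjusted p of 0.0555, and the Relb call without IL-1β replicate 5, with 0.0722. These were the highest adjusted p values over their alternatives, and the lowest were 0.00278 for Rel and 0.00497 for Relb.

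Adding IL-1β to palmitate raised 7 members, where 5.71% of all genes were called higher and 4.10% lower. The median difference over the 10 members was 0.22 in log2, against 0.37 for palmitate added to IL-1β. The 7 rises lay between 0.22 in log2 for Nfkbie (adjusted p = 0.00405) and 0.32 for Rel (adjusted p = 6.52e-04). Nfkb1, Rela and Bcl3 did not pass the test, and Nfkbib, at 0.22 ± 0.07 (adjusted p = 0.0329), lost its call in 7 of 15 other settings (adjusted p from 0.0254 to 0.119 over all 15), among them the fits without replicate 10, 11, 12, 13, 15 or 16. For 9 of the 10 members, all but Bcl3, every palmitate + IL-1β library lay above every palmitate library. These 9 include Nfkb1 and Rela, which did not pass the test, and overlap was not counted over all genes.

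**Figure D3:**
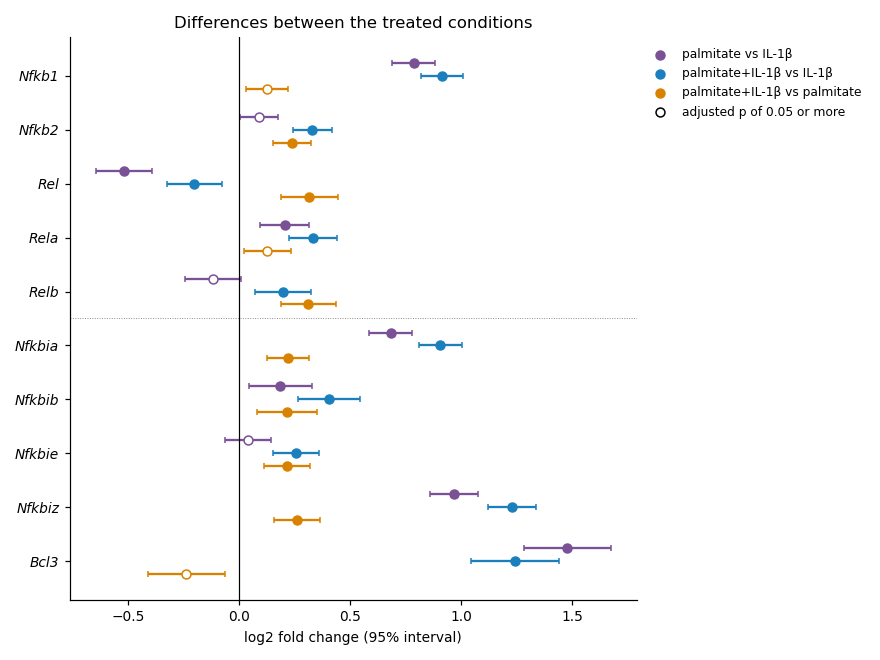
Log2 differences of each member between the treated conditions, with 95% intervals; an open circle did not pass the test. Bcl3, Nfkbiz, Nfkb1 and Nfkbia lie far to the right for palmitate against IL-1β, Rel lies to the left, and the differences between palmitate + IL-1β and palmitate lie between -0.24 and 0.32.

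Whether one agent changed the effect of the other was tested with the interaction, the log2 effect of palmitate with IL-1β present minus its log2 effect without. All 10 estimates were below 0, and 7 members were called lower and none higher, where 1.83% of all genes were called lower and 0.159% higher. The largest belonged to Nfkbia, at -1.26 ± 0.07 (adjusted p = 1.85e-14). Palmitate raised Nfkbia 4.48-fold without IL-1β and 1.87-fold with it, and IL-1β raised it 2.79-fold without palmitate and 1.17-fold with it. Nfkbie followed at -1.20 ± 0.07 (adjusted p = 3.29e-13), where palmitate gave 2.74-fold without IL-1β and 1.20-fold with it.

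The nuclear IκB genes had interactions of like size, -1.13 ± 0.14 for Bcl3 (adjusted p = 2.33e-06) and -1.11 ± 0.08 for Nfkbiz (adjusted p = 5.31e-12). Those of the subunit genes were smaller, -0.60 ± 0.06 for Nfkb2 (adjusted p = 2.82e-08), -0.59 ± 0.09 for Relb (adjusted p = 4.01e-05) and -0.26 ± 0.07 for Nfkb1 (adjusted p = 0.0326). The Nfkb1 call was lost in 9 of 22 other settings (adjusted p from 0.00575 to 0.110 over all 22), which were upper-quartile scaling and the fits without replicate 2, 3, 7, 9, 10, 11, 13 or 16. Rel (-0.31, 95% interval -0.49 to -0.13, adjusted p = 0.0602), Nfkbib (-0.25, -0.45 to -0.05, adjusted p = 0.301) and Rela (-0.12, -0.27 to 0.04, adjusted p = 0.659) did not pass the test.

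An interaction on the log2 scale says that folds did not multiply, and a gene whose CPM simply add also gives one. The observed level under both agents was therefore set beside the additive level, the BSA (control) mean plus the rise with each agent, as a description without a test. All 10 members lay below the additive level, and 7 of them by more than 2 standard errors. The additive level was not computed for other genes, so no share over all genes stands beside these counts. Called log2 interactions over all genes were also mostly below 0 (1.83% lower, 0.159% higher). Nfkbie lay 19.8 ± 1.70 CPM (SE) below an additive level of 71.5 CPM, which is 27.7% below it. Nfkbia lay 17.4 ± 1.93 CPM below 105 CPM (16.6%), and Nfkb2 45.6 ± 6.92 CPM below 276 CPM (16.5%).

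For Nfkbiz the CPM came closer to adding, with 9.56 ± 3.55 CPM below 109.9 CPM (8.71%), although its log2 interaction was about as large as that of Nfkbie. Bcl3 lay 5.45 ± 1.16 CPM below 19.9 CPM (27.4%). Rel and Relb lay 17.3% and 17.3% below their additive levels. Nfkb1, Rela and Nfkbib were within 2 standard errors of theirs.

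**Figure D4:**
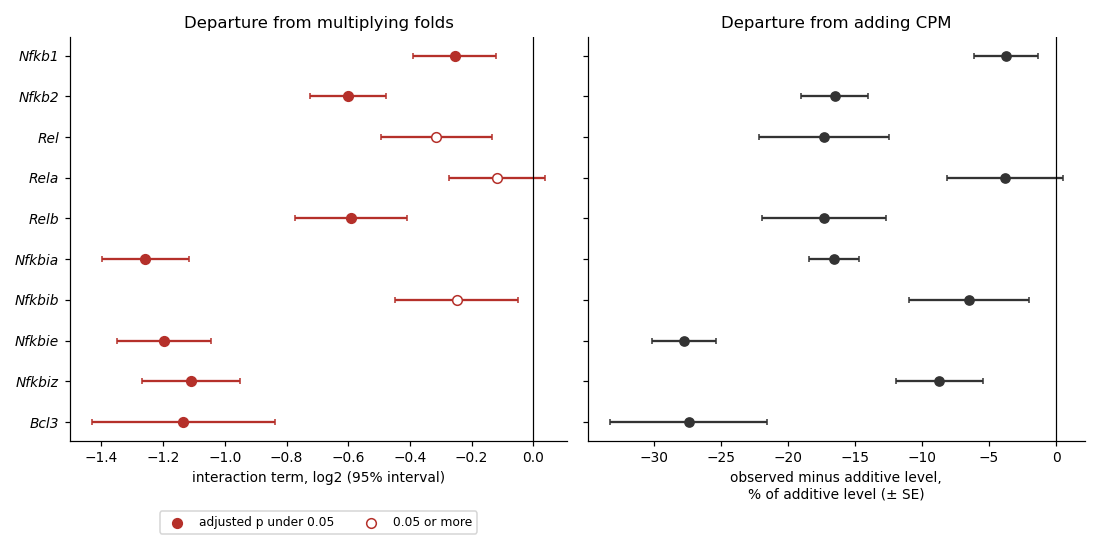
Left, the interaction term in log2 with its 95% interval, open where it did not pass the test; right, the observed level under both agents minus the additive level, in % of the additive level with its SE. All 10 members lie left of 0 in both panels, and Nfkbiz lies at -1.11 in the first and 8.71% below the additive level in the second.

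To compare levels between genes, CPM were divided by the length of the merged exons in kb. Among the inhibitor-type genes, Nfkbia was the most abundant in every condition, at 8.66 CPM per kb in BSA (control), 24.1 with IL-1β, 38.8 with palmitate and 45.3 with both agents. Its share of the summed CPM per kb of the 5 inhibitor-type genes was 42.0% ± 2.08 (SD) in BSA (control), 48.7% ± 1.42 with IL-1β, 51.9% ± 0.779 with palmitate and 52.3% ± 0.801 with both agents. The share of Nfkbib went the other way, from 22.0% ± 1.63 in BSA (control) to 12.7% ± 0.762 with IL-1β, 9.57% ± 0.420 with palmitate and 9.61% ± 0.523 with both agents, although its own level rose in each. Bcl3 was the least abundant, at 0.623 CPM per kb in BSA (control) and 3.25 in palmitate.

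Among the subunit genes, Nfkb2 and Rela together made up most of the per-kb level by merged exons. The share of Rela was 36.6% ± 1.22 in BSA (control), 28.9% ± 1.78 with IL-1β, 29.7% ± 0.670 with palmitate and 28.3% ± 0.497 with both agents. That of Nfkb2 was 35.5% ± 0.883, 42.3% ± 0.787, 40.2% ± 0.471 and 41.3% ± 0.554 in the same order. The share of Rela was lower in each treated condition than in BSA (control), and that of Nfkb2 higher, without overlap between libraries.

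The shares depend on the length used, above all for Nfkb1, whose merged exons span 12848 bases and whose longest transcript has 4802. By the longest transcript, the Rela share was 30.5%, 24.4%, 23.6% and 22.6%, in the same order. The Nfkb1 share by merged exons was 12.3% ± 0.619 in BSA (control), 10.7% ± 0.464 with IL-1β, 16.5% ± 0.542 with palmitate and 15.7% ± 0.274 with both agents, so it was lower with IL-1β and higher with palmitate, without overlap with BSA (control). By the longest transcript it was 24.6% in BSA (control), 21.7% with IL-1β and 31.3% with palmitate. The summed level of the classical IκB genes (Nfkbia, Nfkbib and Nfkbie) divided by that of the 5 subunit genes was 0.467 ± 0.00266 in BSA (control), 0.745 ± 0.0542 with IL-1β, 0.918 ± 0.0195 with palmitate and 0.932 ± 0.00621 with both agents. By the longest transcript this ratio was 0.434, 0.707, 0.814 and 0.832. These are ratios of transcripts, given without a test.

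**Figure D5:**
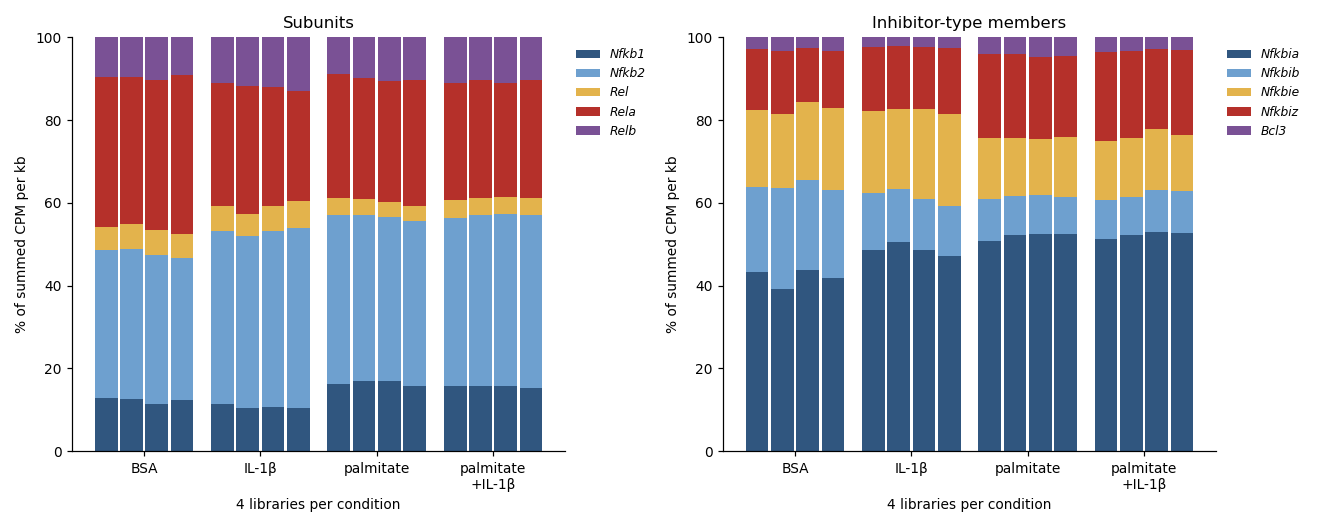
Share of each gene in the summed CPM per kb of merged exons (vertical axes, %) of the 5 subunit genes (left) and of the 5 inhibitor-type genes (right), with a bar per library. The Rela share drops from 36.6% in BSA (control) to 28.3% in palmitate + IL-1β, and the Nfkbib share from 22.0% to 9.61%.

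Upstream of the family, the genes that control IκB breakdown had small median changes. Of 7 genes of the IκB kinase complex and the kinases that activate it, 1 was called higher with IL-1β, 2 with palmitate and 5 with both, where 10.1%, 19.8% and 24.8% of all genes were called higher. None was lower, with medians of 0.10, 0.10 and 0.13 in log2. Ikbkg, the regulatory subunit NEMO, changed most, from 146 ± 4.65 CPM in BSA (control) to 214 ± 2.95 in palmitate + IL-1β (0.55 ± 0.04 in log2, adjusted p = 1.29e-13). Of the 5 genes of the SCF ligase that marks phosphorylated IκB for degradation, 1 fell with palmitate and with both agents and none was called with IL-1β. Over all genes, 17.5% were called lower with palmitate and 22.5% with both, so 1 of 5 is near the background. That gene was Btrc, the substrate receptor β-TrCP, at -0.24 ± 0.06 with palmitate (adjusted p = 0.00118) and -0.33 ± 0.06 with both (adjusted p = 1.66e-05), while Fbxw11, Skp1, Cul1 and Rbx1 did not pass the test against BSA (control).

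Upstream of p100, 6 of 9 genes of the non-canonical arm were called higher with IL-1β and none lower. With palmitate 7 were higher and 1 lower, and with both agents 7 were higher and none lower. Over all genes, 10.1%, 19.8% and 24.8% were called higher and 4.97%, 17.5% and 22.5% lower in these comparisons. The medians of the list were 0.31, 0.56 and 0.57. The receptor gene Cd40 was at 1 to 4 counts per library in BSA (control), so that no fold is given, and at 0.391 ± 0.162 CPM with IL-1β, 6.71 ± 0.529 with palmitate and 6.55 ± 0.597 with both agents. Of 2 further genes picked after their values were seen, Birc3, a ubiquitin ligase of this arm, rose by 1.01 ± 0.06 with IL-1β (adjusted p = 3.51e-15) and 1.46 ± 0.05 with palmitate (adjusted p = 2.28e-20). Map3k14, the kinase NIK, was the gene that fell with palmitate (-0.18 ± 0.07, adjusted p = 0.0428), and it was higher with IL-1β (0.21 ± 0.07, adjusted p = 0.0314).

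Of 8 other IκB-like genes and modulators, 2 were higher and none lower with IL-1β, 2 higher and 2 lower with palmitate, and 3 higher and 2 lower with both. Over all genes, 10.1% were called higher and 4.97% lower with IL-1β, 19.8% and 17.5% with palmitate, and 24.8% and 22.5% with both agents. The counts of 2 and 3 in 8 with palmitate and with both are near the background. Nfkbid, another nuclear IκB gene, was low at 0.424 ± 0.143 CPM in BSA (control), and it rose by 1.29 ± 0.31 in log2 with IL-1β (adjusted p = 0.00347), 0.95 ± 0.31 with palmitate (adjusted p = 0.0153) and 1.35 ± 0.30 with both (adjusted p = 4.02e-04). Of 13 coactivators and modifying enzymes of p65, 3 were higher and 2 lower with IL-1β, 3 and 3 with palmitate, and 4 and 4 with both. The counts with palmitate and with both are near the shares over all genes just given. Pdlim2, which encodes a ligase that marks nuclear p65 for degradation, fell from 30.5 ± 1.02 CPM in BSA (control) to 20.6 ± 0.615 with IL-1β, 18.8 ± 1.02 with palmitate and 12.0 ± 1.23 with both agents. The log2 change was -0.57 ± 0.06 (adjusted p = 3.43e-08), -0.70 ± 0.06 (adjusted p = 5.54e-11) and -1.34 ± 0.06 (adjusted p = 1.68e-17).

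For comparison, 15 genes of other stimulus-activated transcription factors (AP-1, C/EBP, ATF, IRF and STAT) were counted in the same way. Of these, 7 were higher and none lower with IL-1β, 11 higher and 2 lower with palmitate, and 12 higher and 2 lower with both. Over all genes, 10.1%, 19.8% and 24.8% were called higher and 4.97%, 17.5% and 22.5% lower in the same order. The medians of the list were 0.22, 0.76 and 0.76. The largest changes were those of Atf3 with IL-1β (2.07 ± 0.08, adjusted p = 6.51e-19) and of Cebpd with palmitate (2.76 ± 0.11, adjusted p = 9.11e-20). Atf3 did not pass the test with palmitate (0.17, adjusted p = 0.145).

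Lastly, the genes whose 3 log2 changes against BSA (control) were nearest to those of a member were listed, by Euclidean distance over the 4 conditions and 11817 genes, for the 7 members with a called change over 1. The nearest to Relb was Stx11, at a distance of 0.0278, and then Dhrs9 (0.118). Nfkb1 was nearest to Rab32 (0.0522) and then Slc43a2 (0.0588), and Nfkb2 to Bdkrb1 (0.0707) and then Prl2c2 (0.0856). Nfkbia was nearest to the predicted gene Gm4925 (0.184) and then Tnfaip3 (0.251), which encodes the NF-κB feedback inhibitor A20. Nfkbiz was nearest to Casp4 (0.201) and then Ripk2 (0.212), and Bcl3 to the immunoproteasome gene Psmb10 (0.215) and then Bmp3 (0.271). Nfkbie was nearest to the predicted gene Gm48783 (0.316) and then Ets2 (0.382). The distances share the BSA (control) libraries and are given as a description.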

How the data were processed

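Bulk RNA of mGF was measured in 16 libraries, 4 per condition, grouped by the treatment in the labels. For trimming, the authors used Trimmomatic 0.39, for alignment to GRCm39 STAR 2.7.10a, and for counting per GENCODE vM33 gene HTSeq 2.0.9. The deposited values are these raw counts per gene, by strand and without normalization. Library preparation is given as a stranded kit for total RNA in the labels and as oligo(dT)-primed cDNA in the methods of the paper. From 18.3% to 21.4% of each library stood in 5 rows that name no single gene and was left out.

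Counts were tested with edgeR 4.0.16 in R 4.3.3 (TMM, filterByExpr with a minimum count of 10, robust glmQLFit and glmQLFTest) with 1 coefficient per condition over the 16 libraries and no other term, and p-values were adjusted by Benjamini-Hochberg over 16306 genes. The common biological coefficient of variation was 6.08%. Standard errors were taken from the fitted change and its F statistic. The 24 pairs of replicates differed by 2.53 to 17.6 in chi-square per degree of freedom, so none was counted as a copy. The edgeR fit was tried on simulated counts for palmitate against BSA (control) only. The interaction and the other steps were not tried on simulated data. A count of 3 corresponded to 0.0323 to 0.141 CPM, and this floor covers counting error only.

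The alternatives were DESeq2 1.42.0, its size factors, upper-quartile scaling, no filter, a minimum of 10 counts in each library, leaving out mitochondrial and ribosomal RNA genes, only the 8 libraries compared, and leaving out each library. The members, the pathway lists and the tests were chosen with earlier results of these data known. All members were named. Other pathway genes were named where a call was the largest of its list, where a list had 5 genes or fewer, or where the text says they were picked later. Genes of like pattern (average log2 CPM of at least 1) were the 3 nearest to each member, of which the nearest and second nearest are given. Positions and lengths came from GENCODE vM39.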

Additional observations from a re-analysis of the deposited data

Results flagged for a closer look

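For 7 members, the log2 effect of palmitate was not the same in the presence and absence of IL-1β by edgeR's quasi-likelihood test of the interaction. The differences were -1.26 for Nfkbia, -1.20 for Nfkbie, -1.13 for Bcl3, -1.11 for Nfkbiz, -0.60 for Nfkb2, -0.59 for Relb and -0.26 for Nfkb1.

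Of 44 groups of 4 libraries examined for a library far from the others of its condition (Dixon's test, which chance passes in about 1 of 20 groups), 3 stood out. Nfkb1 lay at 79.9 CPM in IL-1β replicate 7, and without that library its change with IL-1β was 0.35 in log2, against 0.38 with it. The same library had 31314557 counts in genes, more than the other IL-1β libraries, and palmitate replicate 10 had 92752515. Without palmitate replicate 10, 9 members were higher and 0 lower against BSA (control), and 6 had an interaction below 0 that passed the test.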

How the results depend on the processing

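Over 23 alternative fits, 1120 changes or differences of a member were recomputed, of which 1084 kept their direction and their side of the threshold, 29 no longer passed, 7 newly passed and 0 reversed. Of the 70 results of a member in a comparison, 61 kept their side under each alternative run. Leaving out single libraries, the counts of members called lower ran from 1 to 2 for palmitate against IL-1β (2 without IL-1β replicate 5, where Relb passed), from 0 to 1 for palmitate + IL-1β against IL-1β (0 without IL-1β replicate 8) and from 0 to 1 for palmitate + IL-1β against palmitate (1 without palmitate + IL-1β replicate 13, where Bcl3 passed). With no filter on low counts the last was also 1. The other counts of members stayed within 1.5 times their value. The calls that changed concerned Nfkbib, Relb, Nfkb2, Rel, Bcl3 and Nfkb1, in differences between treated conditions or in the interaction, and the cause was not tested. The Rel interaction passed in 3 of 22 other settings (DESeq2, without IL-1β replicate 5 and without IL-1β replicate 6), with adjusted p from 0.0255 to 0.161 over all 22. All changes against BSA (control) kept their calls. Over all genes, upper-quartile scaling called 1551 genes lower with IL-1β in place of 810 and 46 higher in the interaction in place of 26, which became 40 with no filter. With the longest transcript in place of merged exons, 19 of 20 subunit shares moved by more than 1 SD between replicates, for example from 12.3% to 24.6% for Nfkb1 in BSA (control), and that of Relb with palmitate (9.89% and 10.5%) did not. No paired analysis was possible because library numbers are not shared between conditions. Depth limits the lowest genes, Nfkbid and Cd40, more than the members.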
